A study of Mus musculus with 8 samples.

Results

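The MGE GABAergic neuron-like nuclei were 2349 of the 39253 nuclei in a series that measured open chromatin in single nuclei of the embryonic mouse forebrain. They came from both libraries of the medial ganglionic eminence (MGE), 1521 from MGE 1 and 828 from MGE 2, and were chosen among the 9399 MGE nuclei, of 10310, that held at least 5000 counts in peaks. For each nucleus, A was the count in peaks over 6 progenitor genes (Hes1, Hes5, Sox2, Notch1, Nes and Vim) and B the count in peaks over 5 GABAergic genes (Dlx5, Dlx6, Gad1, Gad2 and Slc32a1), with each gene taken as its body on the GRCm38 genome plus 2 kb upstream. The members were chosen by these measured counts. Nuclei were ranked by A plus 1 over A plus B plus 2, and the lowest 25% of each library, the most GABAergic end of the ranking, were kept. The same share of the lateral (LGE) and caudal (CGE) ganglionic eminence libraries gave 2622 and 2033 neuron-like nuclei for comparison, and the highest 25% of each library gave progenitor-like nuclei.

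The series held 8 libraries, 2 each from MGE, LGE, CGE and cortex. All 6 eminence libraries came from wild-type brain at the embryonic stage E12.5, and the cortical libraries were not used here. The labels do not say whether the libraries of an eminence came from separate or pooled embryos, so p-values measure the spread between these libraries, which may be technical. Nuclei of 1 library are not replicates, so counts were summed over the members of each library and the 6 sums were compared.

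The medial ganglionic eminence is a swelling of the ventral forebrain whose progenitors express the homeodomain factor Nkx2-1. Its neurons leave the germinal zone and become cortical and striatal interneurons, cholinergic neurons of the basal forebrain, or projection neurons of the globus pallidus. Neurons of the lateral eminence mostly build the striatum, and the caudal eminence supplies other classes of interneuron. All of these eminences use the Dlx genes and the enzymes and transporter that make and package GABA.

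The sums held 25430664 counts in MGE 1 and 12589595 in MGE 2, against 15835597 to 24966338 in the LGE and CGE libraries. A member held a median of 12691 counts in MGE 1 and 13718 in MGE 2, and a progenitor-like nucleus 17553 and 22483.5. Peaks had been called in each library alone, 105456 in MGE 1 and 163509 in MGE 2. MGE 1 had 12 peaks over the progenitor genes of the score where the other 5 libraries had 18 to 23. LGE 1 had 17 peaks over the GABAergic genes of the score where the other 5 libraries had 23 to 30. Pairs of libraries shared 15 to 56 barcodes, and 0 to 6 barcodes of their neuron-like nuclei. No doublet caller was run.

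The median member held 8 counts at the progenitor genes and 22 at the GABAergic genes in MGE 1, and 4 and 19 in MGE 2. For progenitor-like MGE nuclei these medians were 44 and 2 in MGE 1, and 44 and 4 in MGE 2. The last nucleus inside the limit and the first outside it had the same score, 0.4375 in MGE 1 and 0.3125 in MGE 2, and 34 nuclei of each library sat at that value. Inside that limit the MGE 1 nucleus had 48 progenitor and 62 GABAergic counts and outside it 20 and 26, while both MGE 2 nuclei had 4 and 10. The members were thus the end of a range of scores and not a bounded cell type. The limit fell at scores of 0.409 to 0.5 in the LGE and CGE libraries, where 5 to 296 nuclei sat at it and the median neuron-like nucleus held 4 to 6 progenitor and 12 to 16 GABAergic counts.

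The name given to the members was checked on genes that the score did not use. Levels are given as CPM, the counts in peaks over the gene body and 2 kb upstream. They were scaled to the same total of gene-window counts for every sum of nuclei. A peak shared by several genes counts for each of them. Lhx6, the LIM homeodomain factor that marks postmitotic MGE neurons, had 444 and 342 CPM in the members of MGE 1 and MGE 2, and 106 and 118 in the progenitor-like nuclei of the same libraries. Of 15 genes expressed by neurons in general, 14 were higher in neuron-like than in progenitor-like nuclei of both MGE libraries, with median log2 ratios of 0.75 and 0.60. Of 20 progenitor and cell cycle genes outside the score 19 were lower, with medians of -0.66 and -0.91. Stmn2, a regulator of microtubules in growing neurons, had 77.1 and 87.6 CPM in the members against 22.2 and 33.9 in progenitor-like nuclei, and Fabp7, a fatty acid binding protein of radial glia, had 20.01 and 12.1 against 94.4 and 119. These contrasts within a library follow from how the nuclei were ranked and are a description without a test.

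The genes of the score itself show how wide the ranking was. Gad1, an enzyme that makes GABA, had 342 and 272 CPM in members against 48.8 and 51.9 in progenitor-like nuclei, and Slc32a1, the vesicular GABA transporter, had 304 and 249.5 against 28.99 and 31.7. Dlx5 and Dlx6, adjacent homeodomain genes whose windows share all their peaks in the MGE libraries, had 884 and 776 CPM in members and 95.1 and 130.3 in progenitor-like nuclei. Notch1, the receptor that maintains progenitors, went the other way with 171 and 64.8 against 840.4 and 567, and its effector Hes5 had 128 and 73.2 against 464 and 386. The nuclei were chosen by the counts at these genes, so none of the values is a finding.

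Markers of other cell types were examined for the same members. The globin genes Hba-a1 and Hbb-bs and the microglial gene Aif1 had 0 counts in all 6 libraries. Neurod6, a factor of cortical glutamatergic neurons, had 1.35 and 1.15 CPM in MGE members, 12.1 and 6.64 in LGE and 12.7 and 4.12 in CGE members. Summed over 10 glutamatergic markers the MGE members had 569 and 464 CPM and the other 4 libraries 514 to 611. The 6 endothelial markers summed to 186 and 146 CPM against 144 to 186, the 5 mural or mesenchymal markers to 176 and 119.6 against 134 to 148, and the 5 microglial markers to 148 and 148 against 168 to 182. The 5 erythroid markers summed to 94.7 and 67.5 CPM against 67.7 to 80.4, and Pdgfra with Sox10, of the oligodendrocyte lineage, to 176 and 91.6 against 91.5 to 110.1. No marker of these lists was called between MGE members and the mean of LGE and CGE members, and the part of other cells in the results was not tested.

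Between MGE members and the mean of LGE and CGE members, a few regulators of the MGE lineage stood far apart and most genes did not. Across all genes the contrast called 92 of 16855 (0.546%), 37 higher in MGE (0.22%) and 55 lower (0.326%), by edgeR's quasi-likelihood test with a Benjamini-Hochberg adjusted p of at most 0.05. Against LGE alone 58 genes were called (0.344%), 32 higher in MGE (0.19%) and 26 lower (0.154%). Against CGE alone 53 were called (0.314%), 18 higher (0.107%) and 35 lower (0.208%), and both comparisons use the same MGE libraries. Without regard to the test, both MGE values lay above all 4 others in 9.47% of these genes and below them in 12.9%. The count of calls was unsteady, at 29 without MGE 1, 31 without CGE 1 and 521 without MGE 2. In summed counts, more nuclei with an open site and more cuts per nucleus at that site cannot be told apart.

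Of 12 regulators of the MGE lineage, 3 were called and all 3 were higher, namely Nkx2-1, Lhx6 and Lhx8. The list's median log2 fold was 0.47, beside 0.00 over all genes. Nkx2-1 (ENSMUSG00000001496.15, chr12:56531958-56536908), which specifies MGE identity in progenitors, had 453 and 267 CPM in MGE members, 43.6 and 33.5 in LGE and 49.2 and 37.8 in CGE members. Both MGE libraries lay above all 4 others. The log2 fold was 3.15 ± 0.22 (SE, 2 libraries against 4), with an adjusted p of 0.00177.

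Lhx6 (ENSMUSG00000026890.19, chr2:36081953-36105408) had 444 and 342 CPM in MGE members, 45.6 and 54.6 in LGE and 74.5 and 77.9 in CGE members. Both MGE libraries stood above the others, and both CGE libraries lay above both LGE libraries. The log2 fold was 2.68 ± 0.15 (SE), with an adjusted p of 0.000516. All counts of the Lhx6 window fell in peaks that also overlap Morn5, the neighbouring gene, so the window cannot be given to either gene alone.

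Lhx8, a related LIM factor needed for cholinergic neurons, had 168 and 189 CPM in MGE members, 57.7 and 67.2 in LGE and 41.99 and 39.9 in CGE. Its log2 fold was 1.83 ± 0.13 (SE), with an adjusted p of 0.00155. The other 9 regulators were not called. Sox6, which acts downstream of Lhx6, had 417 and 396 CPM against 304 to 341, and Sp9, a zinc finger factor of GABAergic precursors, had 268 and 212 against 156 to 195. Their adjusted p were 0.239 and 0.226.

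The called regulators also had more peak sequence in MGE. The peaks that touch the Nkx2-1 window, whose ends can lie outside it, spanned 24.3 and 21.5 kb in the MGE libraries and 5.50 to 6.34 kb in the others, and those at Lhx6 30.5 and 30.4 kb against 5.94 to 13.8 kb. With the covered length as an offset, which compares counts per covered base, edgeR called 0 genes against the mean of LGE and CGE. The log2 folds were then 1.202 for Nkx2-1 (adjusted p 0.441), 0.97 for Lhx6 (adjusted p 0.492) and 1.01 for Lhx8 (adjusted p 0.402). Counts per covered base and the amount of covered sequence cannot be told apart as sources of the window totals.

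**Figure D1:**
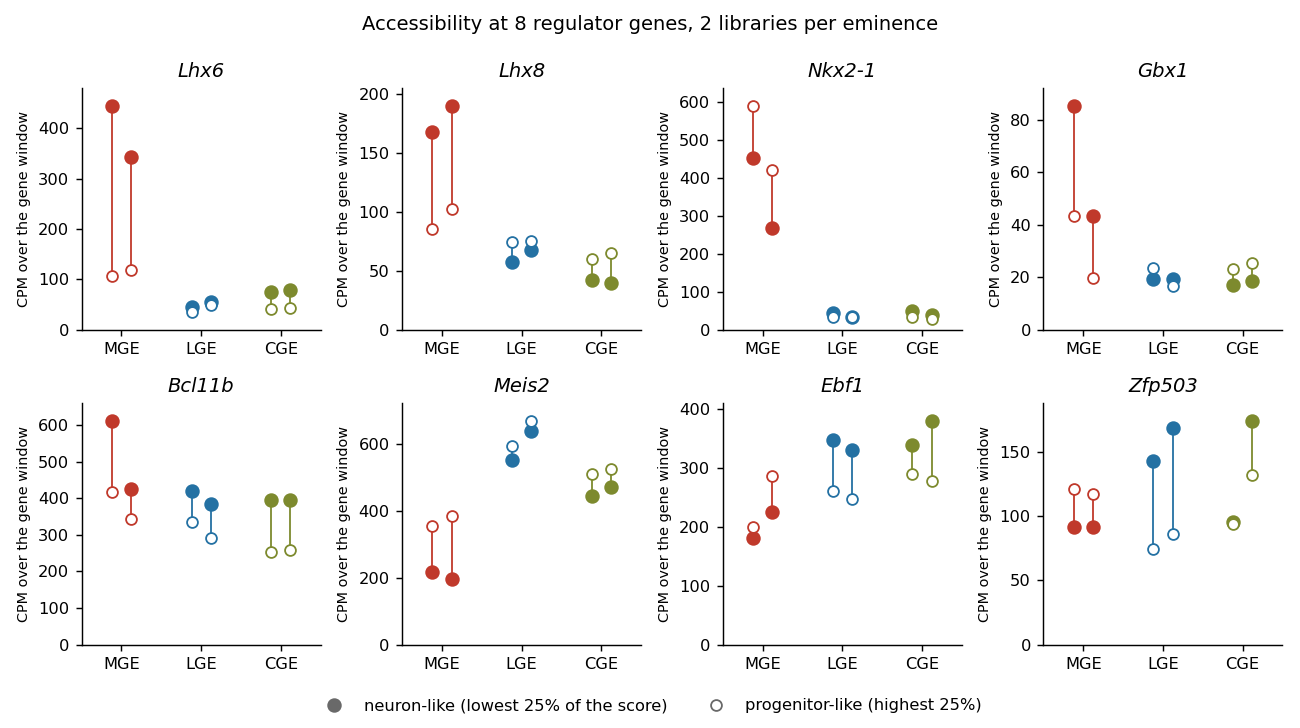
CPM over the gene window of 8 regulator genes (vertical axes, linear from 0) in neuron-like nuclei (filled) and progenitor-like nuclei (open) of each MGE, LGE and CGE library, with a line joining both sums of a library. Lhx6, Lhx8, Gbx1 and Bcl11b were higher in neuron-like than in progenitor-like nuclei of both MGE libraries, and Nkx2-1, Meis2, Ebf1 and Zfp503 were lower.

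Among 11 genes of pallidal and cholinergic projection neurons, Gbx1, Zic1 and Zic4 were called higher in MGE members and none lower, with a list median of 0.52. Gbx1, a homeodomain factor of the ventral forebrain, had 85.2 and 43.1 CPM in MGE members and 17.1 to 19.4 in the other 4 libraries, and 40.8% of its counts lay in peaks shared with Agap3. The fold was 1.81 ± 0.25 (SE) on the log2 scale, at an adjusted p of 0.0263, and Gbx1 was not called without MGE 1, CGE 1 or CGE 2. The zinc finger genes Zic1 and Zic4 are neighbours, and all Zic1 counts lay in peaks shared with Zic4.

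Zic4 had 255 and 256 CPM in MGE members, 167 and 196 in LGE and 83.4 and 89.6 in CGE. Its log2 fold was 1.04 against the mean (adjusted p 0.0168), 1.57 against CGE (adjusted p 0.00845) and 0.51 against LGE (adjusted p 0.278). The gap was thus called against CGE and not against LGE, and whether both gaps differ was not tested. Against the mean Zic4 was not called without MGE 1 or CGE 1, nor Zic1 without LGE 1, CGE 1 or CGE 2, and neither was called per covered base. The cholinergic genes Chat, Slc18a3 and Slc5a7 were not called, and Slc5a7, the choline transporter, had 7.04 and 3.55 CPM against 4.06 to 10.5.

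The genes that name mature interneuron subtypes gave no call. None of 10 passed the test, and the list's median log2 fold was 0.02. Sst, the neuropeptide of a large MGE-derived interneuron class, had 1.35 and 0.799 CPM in MGE members and 1.31 to 4.92 in the others, and Pvalb, the calcium-binding protein of another, had 14.4 and 9.77 against 7.21 to 9.70. Nos1, the neuronal nitric oxide synthase, had 86.2 and 92.8 CPM against 47.3 to 66.1, at an adjusted p of 0.129.

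None of 15 migration genes was called, with a median of 0.03. Robo2, a Slit receptor, had 133 and 235 CPM in MGE members against 290 to 349 (adjusted p 0.23), and Efnb3, an ephrin ligand, had 143 and 131 against 39.3 to 94.95 (adjusted p 0.29). Erbb4, the neuregulin receptor of migrating interneurons, had 164 and 246 CPM against 146 to 203.

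Genes of striatal projection neurons were lower where they were called. Meis2 and Rarb were called lower among 15 and none higher, and the list's median log2 fold was -0.20. Meis2, a TALE homeodomain factor of the striatal lineage, had 218 and 195 CPM in MGE members, 552 and 641 in LGE and 446 and 472 in CGE. Each MGE value was under the lowest value elsewhere, and the fold was -1.33 ± 0.13 (SE) on the log2 scale, at an adjusted p of 0.00831. Per covered base it was -0.32 and not called.

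Rarb, a retinoic acid receptor, had 83.2 and 88.5 CPM in MGE members against 151 to 189.8, a log2 fold of -0.98 (adjusted p 0.0263), and was not called without MGE 1, LGE 1, CGE 1 or CGE 2. Ebf1, a factor of direct pathway striatal neurons, had 181 and 226 CPM against 331 to 379, at an adjusted p of 0.0614. Bcl11b, a zinc finger factor of maturing striatal neurons, lay the other way at 611 and 424 CPM against 384 to 421 (adjusted p 0.348).

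No CGE interneuron gene was called against the mean. Nr2f1, an orphan nuclear receptor graded toward the caudal telencephalon, had 239.7 and 185 CPM in MGE members, 149.9 and 129 in LGE and 389.5 and 487 in CGE, so MGE lay between them. Its relative Nr2f2 had 195 and 145 CPM in MGE, 80.1 and 113 in LGE and 208 and 316 in CGE, in the same order. Prox1, a factor of CGE interneurons, had 174 and 123 CPM against 118 to 130.5, and Vip was not tested, with 0 counts in 5 of the 6 libraries.

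The genes shared by all GABAergic or all neuronal lineages gave no call, with 0 of 15 pan-neuronal genes, 0 of 8 GABAergic genes outside the score and 0 of 20 progenitor genes. The GABAergic list had a median log2 fold of 0.44. Dlx1, a homeodomain factor of all eminences, had 689 and 548 CPM in MGE members against 368 to 474 elsewhere (adjusted p 0.11), in peaks shared with Dlx2 and Metap1d. Mapt, the microtubule protein tau, had 175 and 149 CPM against 127 to 164.

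The called genes with the largest folds were of varied function. Higher in MGE after Nkx2-1 came Fgr, a Src family kinase, at 33.2 and 22.6 CPM against 3.16 to 6.32, Mettl11b, a methyltransferase, at 32.4 and 52.5 against 4.33 to 8.55, and Aqp6, a water channel, at 36.7 and 32.3 against 7.07 to 8.58. Lhx8, Gbx1, Spata31d1a and Ip6k3 completed that group, with Ip6k3, an inositol phosphate kinase, at 14.54 and 15.9 CPM against 3.65 to 7.12. Lower were Tnfsf8, a tumour necrosis factor ligand, at 0.632 and 0.977 CPM against 9.79 to 30.5, and Ppp1r3a, a glycogen-targeting phosphatase subunit, at 2.53 and 3.82 against 30.4 to 48.8. Hormad2, Toporsl, Sycp2l, Olfr452, Fap and Gnat2 were the others, with log2 folds of -3.95 to -2.39. Several of these calls were unsteady. Of the alternatives run for each, Ip6k3 kept its call in 3 of 14, with log2 folds of 0.29 to 1.75, Hormad2 in 6 of 15 and Gnat2 in 8 of 15. All 3 lost it without MGE 1, LGE 1 or CGE 1, among others. These values come from whole peaks that touch the named gene or its 2 kb upstream and can reach beyond them. They do not show whether that gene is transcribed.

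The next comparison asked how the step from progenitor-like to neuron-like nuclei differed between MGE and the other eminences. It took the log2 ratio of both sums within each library, counted in the same peaks, and tested the MGE ratio against the mean of the LGE and CGE ratios. The test called 633 of 17110 genes (3.7%), 287 higher in MGE (1.68%) and 346 lower (2.02%). Without the term for the library it called 2 genes, and leaving out 1 library gave 228 (without MGE 2) to 935 (without CGE 2).

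Lhx6, Lhx8 and Gbx1 rose more toward the neuron-like end in MGE. Of the 12 MGE regulators 3 were called higher and 1 lower, and the list's median was 0.20 beside -0.02 over all genes. Lhx6 went from 106 to 444 CPM in MGE 1 and from 118 to 342 in MGE 2, and neuron-like nuclei of the other libraries had at most 77.9. The difference of log2 ratios was 1.25 ± 0.15 (SE, adjusted p 0.00088). Lhx8 went from 85.3 to 168 and from 102 to 189 CPM, whereas neuron-like nuclei had less than progenitor-like ones in all 4 other libraries, and the difference was 1.35 ± 0.11 (SE, adjusted p 6.63e-05).

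Gbx1 went from 43.3 to 85.2 and from 19.6 to 43.1 CPM in MGE, with a difference of 1.28 (adjusted p 0.000965). It went from 23.3 to 17.1 and from 25.5 to 18.4 in CGE, and from 23.4 to 19.2 and from 16.5 to 19.4 in LGE, so it was lower in neuron-like nuclei of both CGE libraries and LGE 1 and higher in those of LGE 2.

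Nkx2-1 went the other way within MGE. It had 589 CPM in progenitor-like and 453 in neuron-like nuclei of MGE 1, and 422 and 267 in MGE 2. In the LGE and CGE libraries all values lay between 27.6 and 49.2, with neuron-like nuclei the higher in each. The difference was -0.91 ± 0.13 (SE, adjusted p 0.00292), so the course of the Nkx2-1 window was opposite to that of Lhx6 and Lhx8.

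Of 15 striatal genes 7 were called lower and none higher, against 2.02% of all genes called lower, and the list's median was -0.44. Meis2 went from 356 to 218 and from 386 to 195 CPM in MGE, from 594 to 552 and from 669 to 641 in LGE and from 511 to 446 and from 526 to 472 in CGE. It was lower in neuron-like nuclei of every library and the drop was larger in MGE, with a difference of -0.74 ± 0.11 (SE, adjusted p 0.00355).

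Zfp503, a zinc finger repressor of the striatal lineage, went from 121 to 91.6 and from 117 to 91.9 CPM in MGE and from 74.7 to 143 and from 85.7 to 169 in LGE, a difference of -0.99 (adjusted p 0.000675). Ebf1 went from 200.1 to 181 and from 286 to 226 CPM in MGE and was higher in neuron-like nuclei of all 4 other libraries, a difference of -0.64 (adjusted p 0.00609) that was not called without MGE 2. Foxp2, a forkhead factor of striatal neurons, gave -0.68 (adjusted p 0.00317). Ppp1r1b, the phosphatase inhibitor DARPP-32, and the factors Tshz1 and Pou3f1 gave -0.59, -0.44 and -0.50, but these 3 calls were unsteady. Ppp1r1b kept its call in 6 of 14 alternatives, Tshz1 in 8 of 14 and Pou3f1 in 7 of 14, and none of them was called without MGE 2, LGE 1 or LGE 2.

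Of the plexins, receptors for semaphorins, Plxna4 and Plxna2 were called in opposite directions. Plxna4 went from 61.7 to 149 and from 88.02 to 192 CPM in MGE, with a difference of 0.69 (adjusted p 0.0037), and Plxna2 went from 269 to 274 and from 333 to 257, with -0.60 (adjusted p 0.0218). With start-site peaks alone neither was called, at 0.45 for Plxna4 and -0.01 for Plxna2, and Plxna2 was not called without MGE 2 or LGE 1 either. The other 13 migration genes were not called. Dll3, a Notch ligand of newly committed cells, was the 1 progenitor gene called, at -0.54, and no interneuron subtype, CGE interneuron or pan-neuronal gene was called. Among markers of other cell types, Emx1 gave 0.65, Pdgfrb 0.62 and Col1a2 -1.30. Emx1 was not called without MGE 1, MGE 2 or LGE 1, nor Pdgfrb without MGE 1 or LGE 1, and Col1a2 changed direction, to 0.12, with start-site peaks alone.

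**Figure D2:**
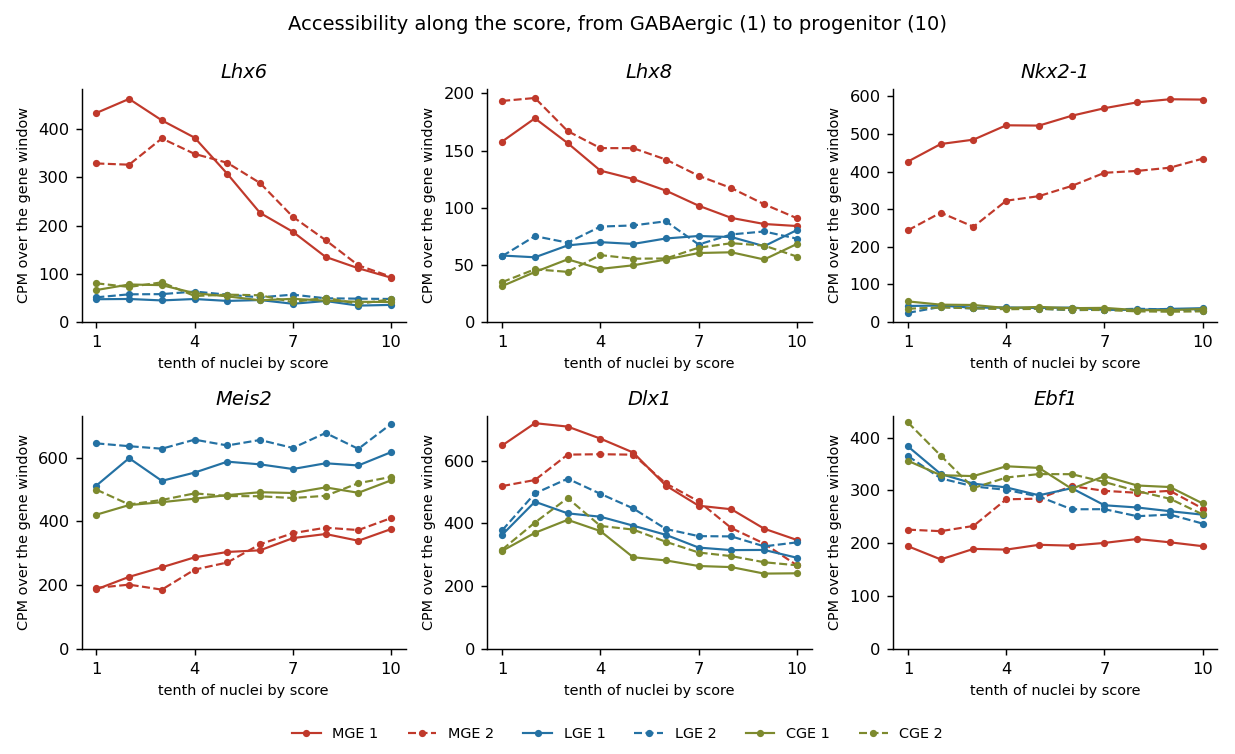
CPM over the gene window (vertical axes) for nuclei of each library split by score into 10 bins of equal size (horizontal axes), from the most GABAergic (1) to the most progenitor-like (10). In MGE 1 Lhx6 ran from 434 CPM in the first bin to 91.8 in the last and Nkx2-1 from 427 to 592, while Lhx6 was at most 82.1 CPM in any bin of the LGE and CGE libraries.

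Nuclei between both ends filled the range when each library was split by score into 10 bins of equal size. In MGE 1 Lhx6 peaked in bin 2 at 463 CPM and was lowest in bin 10 at 91.8. In MGE 2 it peaked in bin 3 at 381 CPM and ended at 93.6. Bins 4 and 5 lay outside the members and held 349 and 330 CPM of Lhx6 in MGE 2, beside 329 in bin 1. In MGE 1 they held 382 and 307, beside 434 in bin 1. Lhx8 was highest in bin 2 of both libraries, at 178 and 196 CPM, and ended at 83.9 and 90.8. Nkx2-1 ran from 427 to 592 CPM in MGE 1 and from 244 to 434 in MGE 2, the reverse of Lhx6. Dlx1 was highest not in the most GABAergic bin but in bin 2 of MGE 1, at 719.5 CPM, and bin 4 of MGE 2, at 621.

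Meis2 ran from 187 to 376 CPM in MGE 1 and from 192 to 410.5 in MGE 2. Ebf1 ran from 194 to 194 and from 226 to 266 CPM. The score ranks the nuclei, so these courses are a description.

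Within the MGE libraries, also without a test, the genes outside the score with the largest ratios of neuron-like to progenitor-like nuclei included Asb18, an ankyrin repeat protein, at 134 and 154 CPM against 23.2 and 21.9. Ecel1, a neuronal peptidase, had 75.3 and 62.2 CPM against 15.8 and 12.3, Adra2c, an adrenergic receptor, 38.7 and 38.4 against 9.06 and 5.29, and Nefh, a neurofilament, 61.2 and 63.6 against 16.9 and 19.4. In the opposite direction, Mlc1, a membrane protein of astroglia, had 7.67 and 3.37 CPM in members against 76.3 and 60.5, Vcam1, an adhesion protein of neural stem cells, 11.2 and 10.8 against 62.5 and 85.8, and Slco1c1, a thyroid hormone transporter, 5.90 and 7.90 against 63.6 and 93.5.

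Gene windows mix many elements, so single regions were compared next, and many more of them passed. Peaks of the 6 libraries were merged, and the 77217 regions with a peak in all 6 were kept, which held 90.9 and 96.6% of the counts of MGE 2 and MGE 1 members. For regions, CPM was scaled to the total of counts in these regions. The contrast of MGE members with the mean of LGE and CGE members called 7004 of 76128 regions (9.2%), 3072 higher in MGE (4.04%) and 3932 lower (5.16%). With the covered length as an offset it called 4151, of which 3535 were among the 7004, and without 1 library it called 4100 (without MGE 1) to 6914 (without MGE 2). A start site was within 1 kb for 20.3% of all tested regions, 5.31% of those higher in MGE and 2.29% of those lower, so the called regions lay mostly away from promoters.

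The regions nearest to the genes of each list did not all follow the gene windows. Around the 12 MGE regulators 31 of 219 regions were higher in MGE (14.2%) and 13 lower (5.94%). Of the 6 regions nearest to Nkx2-1, 5 were higher, and of 14 near Lhx8, 6 were higher and 2 lower. Around the pallidal and cholinergic genes, whose called windows were all higher, 8 of 81 regions were higher and 8 lower (9.88% each). Around the interneuron subtype genes, none of which was called as a window, 14 of 88 regions were higher (15.9%) and 5 lower (5.68%). The higher ones were 4 of 20 near Nos1, 3 of 11 near Nxph1, a neurexin ligand, 4 of 25 near Elfn1, a synaptic adhesion protein, and 3 of 14 near Npy. Near Sst, Pvalb, Calb1, Tac1, Crhbp and Chodl none was higher.

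Around the striatal genes 41 of 225 regions were lower (18.2%) and 11 higher (4.89%), with 13 of 24 lower near Meis2, 6 of 16 near Foxp2 and 7 of 35 near Ebf1. Lower regions also outnumbered higher ones around the CGE interneuron genes, at 22 (12.8%) against 6 (3.49%) of 172, and around the migration genes, at 43 (11.5%) against 21 (5.63%) of 373, beside 5.16% lower and 4.04% higher over all regions. Robo1 had 9 of 64 regions lower, Robo2 7 of 39 and Erbb4 6 of 21, although the Erbb4 window as a whole was not called. The pan-neuronal genes had 15 higher (6.36%) and 22 lower (9.32%) of 236, and the progenitor genes 11 higher (3.77%) and 19 lower (6.51%) of 292. Near the glutamatergic markers 9 of 59 regions were lower (15.3%) and 0 higher, and the part of glutamatergic nuclei in the LGE and CGE sums was not tested. Regions were assigned by distance and were not linked to the genes by any measurement here.

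**Figure D3:**
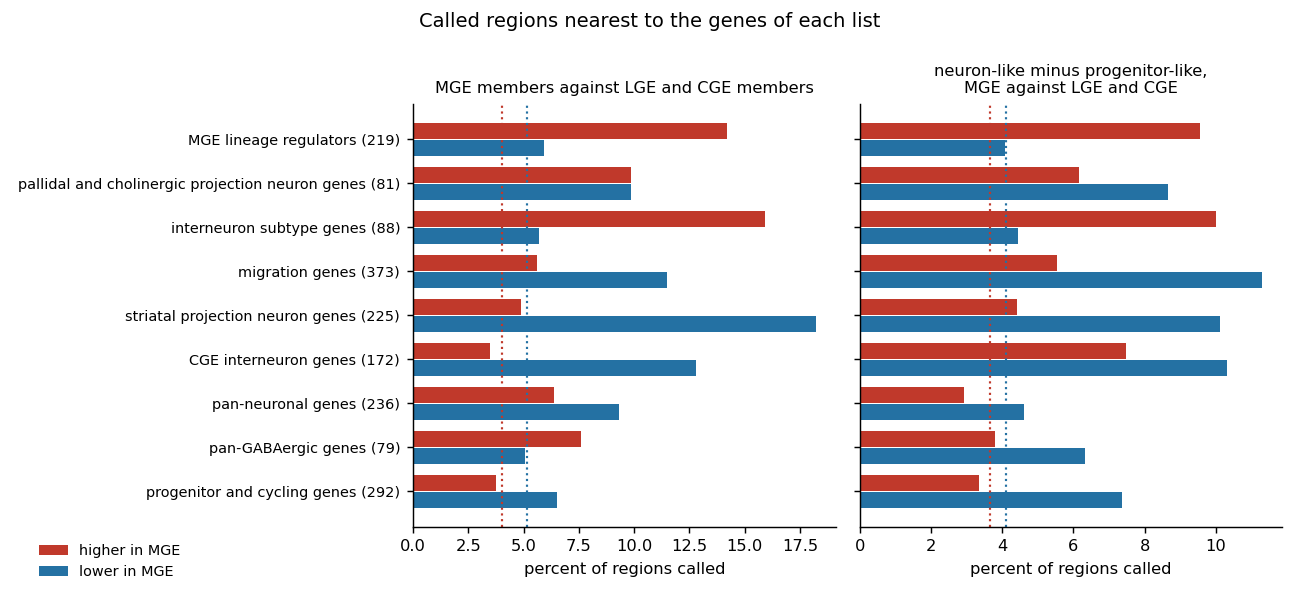
Percent of tested regions nearest to the genes of each list (number of regions in the left comparison in brackets) that were called higher (red) or lower (blue) in MGE, for neuron-like nuclei against LGE and CGE (left) and for the difference of differences (right), with dotted lines at the percent of all tested regions. On the left, regions near MGE regulators and interneuron subtype genes were called higher in 14.2 and 15.9% of cases against 4.04% of all regions, and regions near striatal genes were called lower in 18.2% against 5.16%.

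Among regions covered by peaks over at least 50% of their length in every library, the largest fold upward belonged to an intron of Tbc1d22b, a Rab GTPase regulator, at chr17:29588888-29590211. It had 27.02 and 43.1 CPM in MGE members against 3.04 to 4.66 in the other 4 libraries, a log2 fold of 3.23 ± 0.28 (SE, adjusted p 0.000407). An intron of Elmo1, an engulfment and migration adaptor, at chr13:20450539-20451473 had 14.6 and 22.8 CPM against 1.53 to 2.67 (log2 fold 3.19, adjusted p 0.000465). Progenitor-like MGE nuclei were also high at both, with 20.2 and 27.2 CPM against 6.33 to 6.93 at Tbc1d22b and 16.3 and 23.97 against 6.74 to 11.1 at Elmo1. The third, far from any gene at chr14:81685511-81686429, varied between the MGE libraries, with 3.62 and 16.5 CPM against 0.594 to 3.11 (log2 fold 3.00, adjusted p 0.00751), and without MGE 2 it was not called, at 1.54.

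Downward, a region 15.1 kb upstream of Pde9a, a cyclic GMP phosphodiesterase, had the largest fold among the regions named. It held 1.02 and 0.699 CPM in MGE members, 16.00 and 15.1 in LGE and 6.34 and 5.65 in CGE (log2 fold -3.39, adjusted p 0.000651). Progenitor-like nuclei were also lower there in MGE, at 7.57 and 9.91 CPM against 10.6 to 24.1, and held more than neuron-like nuclei in every library. A Lrmda intron at chr14:23052760-23053616 held 1.38 and 1.49 CPM in MGE members, 19.05 and 19.3 in LGE and 11.6 and 11.7 in CGE, a log2 fold of -3.34 ± 0.29 (SE, adjusted p 0.000411). Its progenitor-like nuclei held 2.04 to 4.09 CPM in all 6 libraries, so it was higher in neuron-like nuclei of LGE and CGE and lower in those of MGE.

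A region 36.3 kb upstream of Fam49a had 1.34 and 1.57 CPM in MGE members against 11.8 to 16.7, and 0.802 to 4.03 in all progenitor-like sums. An intron of Astn2, a gene of neuronal migration, had 3.50 and 3.06 CPM against 24.04 to 38.3, but there the progenitor-like nuclei differed as well, at 3.49 and 4.29 against 13.3 to 28.7. An intron of Dab1, an adaptor of Reelin signalling, had 0.732 and 0.350 CPM against 4.05 to 7.67, and its progenitor-like nuclei differed too, at 6.77 and 4.29 against 17.7 to 21.96.

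For regions the difference of differences called 6004 of 77216 (7.78%), 2819 higher in MGE (3.65%) and 3185 lower (4.12%), with 1336 called without the term for the library and 1642 without MGE 2. Of those called higher, 80.7% rose toward the neuron-like end in both MGE libraries, where 46.9% of all tested regions did. Of those called lower, 61.2% fell in both MGE libraries and 61.1% rose in all 4 others, beside 35.9% and 38.1% of all tested regions. The MGE ratio is part of the call, so these shares are a description. Around the MGE regulators there were 21 higher (9.55%) and 9 lower (4.09%) of 220, and around the interneuron subtype genes 9 higher (10.0%) and 4 lower (4.44%) of 90. The striatal genes had 10 higher (4.41%) and 23 lower (10.1%) of 227, the CGE interneuron genes 13 higher (7.47%) and 18 lower (10.3%) of 174 and the migration genes 21 higher (5.53%) and 43 lower (11.3%) of 380. The pallidal and cholinergic genes had 5 higher (6.17%) and 7 lower (8.64%) of 81, the pan-neuronal genes 7 higher (2.94%) and 11 lower (4.62%) of 238, the GABAergic genes outside the score 3 higher (3.8%) and 5 lower (6.33%) of 79 and the progenitor genes 10 higher (3.34%) and 22 lower (7.36%) of 299.

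A region 15.6 kb from the start of G6pc2 went from 1.63 to 9.07 and from 2.22 to 21.6 CPM in MGE and fell in each of the others (difference 3.71, adjusted p 1.98e-05). A Lrrc6 intron at chr15:66416237-66417080 went from at most 0.880 to 10.6 to 22.3 CPM in LGE and CGE, and held 3.25 and 2.74 in progenitor-like and 1.51 and 3.85 in neuron-like MGE nuclei (difference -5.81, adjusted p 0.000164). CGE 2 progenitor-like nuclei had 0 counts there, and the region near Ralgapa2 with the most negative difference had 0 counts in the members of both MGE libraries, so these fitted values depend on the prior count, and the Ralgapa2 call was kept in 5 of 13 alternatives.

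**Figure D4:**
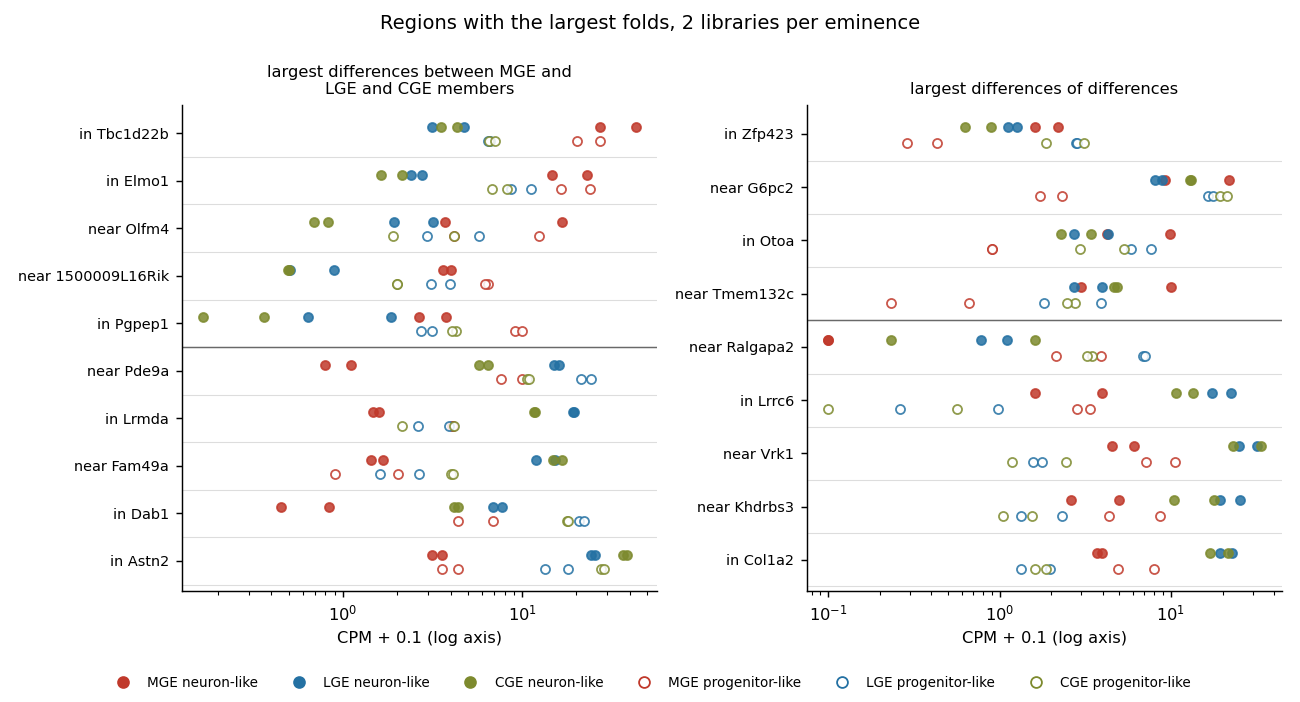
CPM plus 0.1 (log axis) in neuron-like (filled) and progenitor-like (open) nuclei of each library at called regions with the largest folds in each direction, 4 or 5 in each, among those covered by peaks over at least 50% of their length, for MGE against LGE and CGE members (left) and for the difference of differences (right), higher in MGE above the dark line and lower below it. At the Lrmda region the MGE members were at 1.38 and 1.49 CPM and the other neuron-like sums between 11.6 and 19.3.

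Windows of 6 of these regions are printed because they hold motif letters whose shares are given next. Each window is 300 bases at the centre of the part covered by peaks in both MGE libraries, read 5′ to 3′ on the plus strand of GRCm38, and capitals mark the letters named on either strand. The first 3 are from regions lower in MGE or with a lower step, and hold TGACAG, the letters of a MEIS site, 3, 2 and 4 times.
Lrmda intron, chr14:23053021-23053320: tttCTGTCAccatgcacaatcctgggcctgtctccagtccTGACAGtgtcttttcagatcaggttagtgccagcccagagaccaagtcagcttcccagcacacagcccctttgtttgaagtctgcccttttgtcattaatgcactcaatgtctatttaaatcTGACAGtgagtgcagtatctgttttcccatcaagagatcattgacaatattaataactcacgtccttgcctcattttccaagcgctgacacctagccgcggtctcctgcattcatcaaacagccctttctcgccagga
Upstream of Fam49a, chr12:12225702-12226001: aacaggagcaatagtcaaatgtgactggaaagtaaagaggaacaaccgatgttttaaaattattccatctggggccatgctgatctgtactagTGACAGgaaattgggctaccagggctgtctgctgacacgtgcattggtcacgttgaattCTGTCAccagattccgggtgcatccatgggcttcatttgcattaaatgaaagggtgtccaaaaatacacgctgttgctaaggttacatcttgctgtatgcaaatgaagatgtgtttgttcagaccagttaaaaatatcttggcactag
Lrrc6 intron, chr15:66416543-66416842: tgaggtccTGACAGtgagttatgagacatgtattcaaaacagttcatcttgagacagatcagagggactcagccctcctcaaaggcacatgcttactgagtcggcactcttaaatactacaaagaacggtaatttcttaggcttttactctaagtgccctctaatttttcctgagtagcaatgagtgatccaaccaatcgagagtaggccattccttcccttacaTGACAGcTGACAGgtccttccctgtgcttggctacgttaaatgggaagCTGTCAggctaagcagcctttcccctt
The next 2 are from regions higher in MGE or with a larger step there, and hold TAATTA, letters shared by LHX, DLX and other homeodomain sites, 2 and 1 times.
Near G6pc2, chr2:69235178-69235477: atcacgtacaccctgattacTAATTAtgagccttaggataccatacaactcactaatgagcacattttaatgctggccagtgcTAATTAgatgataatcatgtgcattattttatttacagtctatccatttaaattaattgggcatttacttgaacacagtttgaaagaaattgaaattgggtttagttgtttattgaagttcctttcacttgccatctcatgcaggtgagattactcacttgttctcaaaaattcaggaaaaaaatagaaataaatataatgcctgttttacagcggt
Far from any gene on chromosome 14, chr14:81685782-81686081: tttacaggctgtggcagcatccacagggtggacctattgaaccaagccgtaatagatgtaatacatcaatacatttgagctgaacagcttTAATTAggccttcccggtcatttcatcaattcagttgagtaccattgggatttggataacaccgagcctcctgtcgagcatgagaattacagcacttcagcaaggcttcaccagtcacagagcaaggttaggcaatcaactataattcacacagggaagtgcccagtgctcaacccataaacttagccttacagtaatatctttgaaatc
The last, from the Elmo1 intron, holds CACTTNA, letters of an NKX2 site, 1 time.
Elmo1 intron, chr13:20450836-20451135: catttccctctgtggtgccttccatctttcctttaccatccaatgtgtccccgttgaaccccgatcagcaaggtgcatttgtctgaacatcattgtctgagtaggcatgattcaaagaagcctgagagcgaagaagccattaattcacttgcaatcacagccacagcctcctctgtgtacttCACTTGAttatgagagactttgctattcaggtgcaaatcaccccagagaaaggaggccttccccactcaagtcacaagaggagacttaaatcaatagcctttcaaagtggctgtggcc
The window of the Tbc1d22b intron, with the largest fold upward, held 0 copies of TAATTA and 0 of CACTTNA.

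Over all called regions the letters were spread unevenly. TGACAG stood in 23.7% of all tested windows, 21.1% of those higher in MGE and 44.9% of those lower. TAATTA stood in 10.8%, 19.1% and 21.4%, so it was more frequent in both directions. CACTTNA stood in 15.5%, 23.3% and 19.8%, and CAGCTG, an E-box that can overlap TGACAG, in 23.97%, 29.6% and 23.9%. In the difference of differences TAATTA stood in 31.8% of windows called higher and 14.03% of those called lower, and TGACAG in 20.2% and 38.2%. CACTTNA stood in 17.1% and 25.4% there and CAGCTG in 21.1% and 27.4%. Both were thus more frequent in lower windows there, and in higher windows between members.

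Base composition and promoters moved with these sets. The median GC content was 50.3% over all windows, 49.00% in those higher in MGE and 46.00% in those lower. Outside promoters TGACAG stood in 25.8% of all windows and 44.95% of those lower in MGE, and TAATTA in 13% of all and 32.6% of those with a higher difference of differences. Among regions called with the covered length as an offset TGACAG stood in 19.4% of higher and 47.2% of lower windows. These shares are a description, a match of letters is not a bound site, and the part of base composition was not tested.

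**Figure D5:**
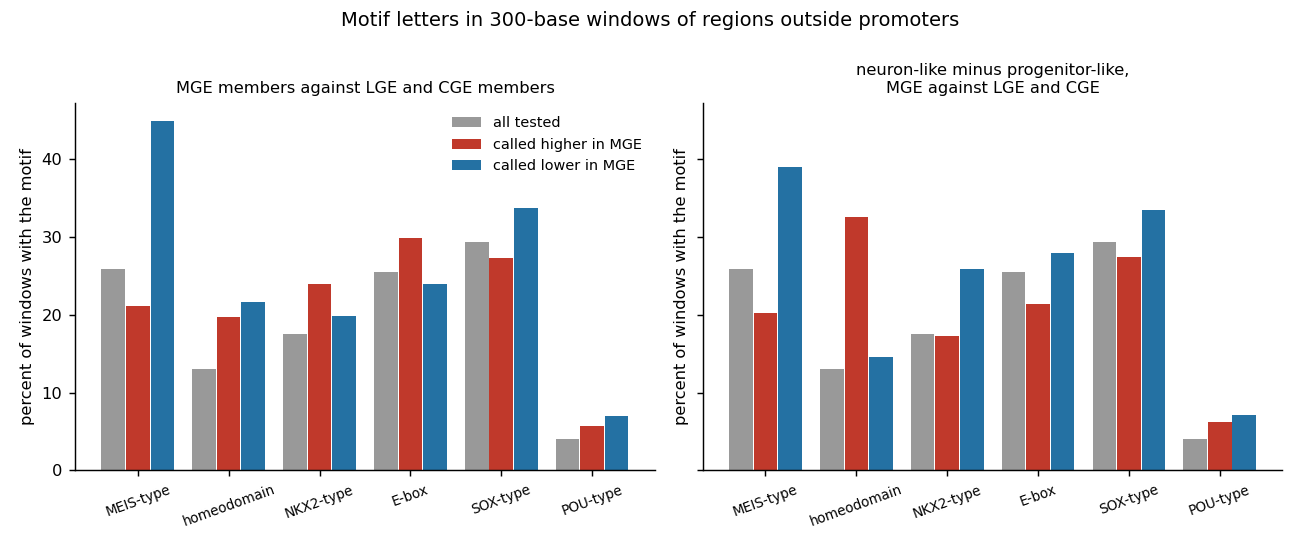
Percent of 300-base windows outside promoters that hold each motif's letters on either strand (TGACAG for MEIS-type, TAATTA for homeodomain, CACTTNA for NKX2-type, CAGCTG for E-box, ACAAAG for SOX-type, ATGCAAAT for POU-type), in all tested regions (grey) and those called higher (red) or lower (blue) in MGE, for neuron-like nuclei (left) and the difference of differences (right). The MEIS-type letters were in 44.95% of regions lower in MGE members against 25.8% of all, and the homeodomain letters in 32.6% of regions higher in the difference of differences.

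Regions near genes of the lists, chosen after their values were seen, fill in some loci. A region 110.4 kb upstream of Lhx8, at chr3:154440582-154441492, had 6.63 and 15.3 CPM in MGE members, 4.04 and 5.403 in LGE and 1.78 and 1.93 in CGE (log2 fold 1.92, adjusted p 0.00964). The broad region over the Meis2 promoter, chr2:116055241-116077376, had 126 and 89.9 CPM against 183 to 287 (log2 fold -1.03, adjusted p 0.00956). In progenitor-like nuclei it held 199.99 to 241 CPM in all 6 libraries, so MGE stood apart in the neuron-like sums and not in the progenitor-like ones.

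A region 5.09 kb upstream of Zfp503, chr14:21993399-21995984, had 10.8 and 6.99 CPM in MGE members against 17.8 to 24.6 (log2 fold -1.27, adjusted p 0.0144). A region in Wwox, 447 kb from the start of Maf, a factor of MGE interneurons, went from 1.10 to 3.83 and from 1.23 to 7.17 CPM in MGE and fell in LGE 1, LGE 2 and CGE 1 (difference 3.01, adjusted p 0.00162). The Maf window itself had 71.97 and 56.6 CPM against 47.2 to 56.5 and was not called.

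The deposited motif table, which holds counts per nucleus for each of 579 motifs, gave few calls. Some motifs differed widely between the MGE libraries themselves. MEIS3 had 2853 and 6736 CPM over all motifs in MGE 1 and MGE 2 members, and LHX6 484 and 278. Others did not, such as Dlx1 at 526 and 527. Log2 folds between members ran from -0.71 (PKNOX1) to 0.82 (JUNB(var.2)). Between MGE members and the mean of LGE and CGE members edgeR called 0 of 579 motifs (0%), with 13 at an unadjusted p under 0.05, while DESeq2 called 6. The difference of differences called 18 (3.11%), 13 higher in MGE (2.25%) and 5 lower (0.864%), all at an adjusted p of 0.0469, and leaving out the 5% of nuclei with the most counts left 0. Among the motif families chosen for description the called ones were LHX9 at a log2 difference of 0.06, Dlx1 at 0.09 and Dlx3 at 0.03. LHX2, LHX6 and Lhx8 were not called, and other called motifs, such as Prrx2 and Shox2, also had 0.06. Toward neuron-like nuclei LHX9 changed by -0.02 and -0.03 (log2) in MGE and Dlx3 by -0.004 and -0.005. Both thus did not rise in MGE and fell more in each of the other libraries. Dlx1 motif counts went up by 0.14 and 0.13 (log2) toward neuron-like nuclei in MGE and by 0.00 to 0.07 in the others. The MEIS2 motif changed by -0.01 in both MGE libraries and by 0.04 to 0.10 in the others, a difference of -0.09 that was not called (adjusted p 0.38).

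Members of each MGE library were also clustered, on regions outside the windows of the list genes, giving 3 clusters of 815, 420 and 286 nuclei in MGE 1 and 4 of 281, 245, 176 and 126 in MGE 2. Clusters are given by number, since their leading genes, such as Gucy1b2, Ackr3 and Tead2 in cluster 1 of both libraries, did not name a lineage. Cluster 1 of each library had the most Lhx6, at 570.3 and 477 CPM against 303 to 372 in the other clusters of MGE 1 and 154 to 364 in those of MGE 2. It also had the most Dlx1, at 895 and 799.9 CPM, the most Erbb4, at 224 and 376, and the most Maf, at 93.1 and 82.8.

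The pan-neuronal genes split between cluster 1 and the others. Of 15, 5 were highest in cluster 1 of both libraries (Celf4, Dcx, Elavl3, Elavl4 and Tubb3) and 5 were lowest there (Ank3, Ina, Mapt, Snap25 and Syt1). Tubb3, a neuronal tubulin, had 287 CPM in cluster 1 of MGE 1 and 205 to 227 in the others, and 218 against 148 to 171 in MGE 2. Mapt had 152 CPM in cluster 1 of MGE 1 and 188 to 200 in the others, and 127 against 152 to 168 in MGE 2. Ina, a neurofilament protein, had 91.4 CPM against 129 to 130.3 and 80.96 against 114 to 139. Cluster 3 of MGE 2 had the lowest Lhx6 of all, at 154 CPM, and the lowest Nkx2-1, at 142. Isl1, a LIM factor of cholinergic and striatal neurons, at 127 CPM and Zfp503 at 136 were highest there among the 4 clusters. Of the 15 striatal genes, Meis2 and Foxp2 were instead highest in cluster 1 of both libraries. Lhx8 was highest in cluster 4 of MGE 2, at 244 CPM. Clusters were formed from these same nuclei, so the levels are given without a test.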

How the data were processed

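Single-nucleus open chromatin was profiled by the authors with Cell Ranger ATAC 1.2.0, per the submitters' processing notes, on the mouse genome GRCm38 (mm10). The deposited values used here were raw counts, not normalized, of transposase cut sites per peak and nucleus and per motif and nucleus. Peaks had been called in each library separately, so the same site can have different bounds in different libraries. All peak ends lay within the GRCm38 chromosome lengths, and GENCODE M21 protein-coding genes were used. The way the motif counts were made was not given in the sources used here.

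Nuclei of the 6 eminence libraries with at least 5000 counts were scored as described, and the counts of the lowest and highest 25% were summed for each library, giving 12589595 to 25430664 counts per neuron-like sum. The median absolute log2 difference between libraries of an eminence was 0.247 over genes in MGE, 0.165 in LGE and 0.228 in CGE. Gene windows took all peaks over the body and 2 kb upstream, counted as they were, with no correction for length. Peaks of the 6 libraries were merged into 223135 regions, of which 77217 held a peak in every library. Sums were tested with edgeR 4.0.16 in R 4.3.3 (quasi-likelihood test, TMM scaling, filterByExpr filter, Benjamini-Hochberg adjustment over all genes, regions or motifs, calls at an adjusted p of at most 0.05). One fit compared the 6 neuron-like sums by eminence. The other used 12 sums, with a term for the library, and tested whether the log2 ratio of neuron-like to progenitor-like counts differed between MGE and the mean of LGE and CGE. The script was tested on simulated data. Of 100 genes changed 2-fold between eminences 86 were called, as were all of 100 changed 4-fold in the same run. In that run 25 calls fell on unchanged genes. Of 100 regions changed 2-fold, 24 were called between eminences and 27 in the difference of differences. Of 100 regions changed 4-fold, 80 and 85 were called, and 14 and 8 calls fell on unchanged regions. Genes and regions of the score stayed in the fits and can be among the counted calls, but no test result is given for any of them. Clusters got no test.

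The members, the gene lists and the motifs were chosen with earlier results of these data known. The genes named were members of the gene lists and the 8 called genes with the largest absolute log2 fold in each direction, leaving out the 11 genes of the score and those sharing their peaks, symbols beginning with Gm, ending with Rik or made of numbers, and genes with 50% or more of their counts in peaks shared with another gene. The regions named were the 5 called in each direction with the largest absolute log2 fold and at least 50% peak coverage in all 6 libraries, outside chromosomes 18, X and Y. A few of these genes and regions are not reported here. Motif letters were searched on both strands of 300-base windows. Members of each MGE library were clustered with leidenalg 0.10.2.

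Alternatives were DESeq2 1.42.0, no filter, the covered length as an offset, peaks within 1000 bases of a start site, 15% in place of 25%, thinning each nucleus to 5000 counts, leaving out the 5% of nuclei with the most counts (no doublet caller was run), the replicate number as a block, no term for the library and leaving out each library. One more, a score taken only from peaks in regions with a peak in all 6 libraries, was chosen after seeing the data. The cortical libraries were left out because the comparison was among the eminences.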

Additional observations from a re-analysis of the deposited data

Results flagged for a closer look

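The results given here are those in which the step from progenitor-like to neuron-like nuclei differed between MGE and the mean of LGE and CGE, by the test of that difference itself, and each value is the difference of log2 ratios. Among the regulators of the MGE and pallidal lineages it was -0.91 for Nkx2-1, 1.25 for Lhx6, 1.35 for Lhx8 and 1.28 for Gbx1. The semaphorin receptor genes Plxna2 and Plxna4 had -0.60 and 0.69. The called striatal genes lay below 0, with -0.64 for Ebf1, -0.74 for Meis2, -0.68 for Foxp2, -0.99 for Zfp503, -0.59 for Ppp1r1b, -0.44 for Tshz1 and -0.50 for Pou3f1. Foxp2, Plxna4 and Plxna2 were not called with start-site peaks alone, where Plxna2 had -0.01. The Notch ligand gene Dll3 had -0.54. Of markers of other cell types, Emx1, of cortical progenitors, had 0.65, Pdgfrb, of pericytes, 0.62 and Col1a2, a collagen gene, -1.30, which became 0.12 with start-site peaks alone.

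Genes outside the lists were named for the size of their difference. Mettl11b, Il18rap, Parvg and Krt82 had 2.38, 2.48, 2.38 and 2.17, and Adgrf5, Iqub, Cmah and Tmem182 had 2.09, 2.01, 1.96 and 1.92. With start-site peaks alone Parvg changed direction, to -3.04, and Iqub fell to 0.34, neither called, and Krt82 was not called without MGE 2 or LGE 1. In MGE 1 and MGE 2 Il18rap, a cytokine receptor subunit, went from 1.85 to 10.7 and from 3.32 to 23.4 CPM. Lower were Ambn at -6.16, Abca8a at -6.14, Adad1 at -3.90, Tnfsf8 at -3.27, Toporsl at -2.63, Fat2 at -2.58, Npc1l1 at -2.58 and Hormad2 at -2.54. Ambn, an enamel protein gene, had 0.506 and 1.69 CPM in MGE members and 3.78 to 8.55 in the other libraries, and its difference was -2.06 and not called with start-site peaks alone. The progenitor-like nuclei of LGE 2 had 0 counts at Adad1, so its fitted value depends on the prior count. Among the alternatives, Tmem182 kept its call in 6 of 13, Fat2 in 5 of 13 and Npc1l1 in 8 of 13, and none of these 3 was called without MGE 2 or LGE 1. Hormad2 and Toporsl each kept theirs in 10 of 14, with values as near 0 as -0.77 and -1.26, and Hormad2 was not called without MGE 1, nor Toporsl without MGE 2.

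Regions were named in the same way. Among those higher in MGE were regions in Zfp423 (4.22), near G6pc2 (3.71), in Otoa (3.70) and far upstream of Tmem132c (3.65). Lower were those in Lrrc6 (-5.81), nearest to Vrk1 (-4.82), nearest to Khdrbs3 (-4.38) and in Col1a2 (-4.36). A region near Ralgapa2 had 0 counts in the members of both MGE libraries, so its fitted value of -6.13 depends on the prior count and is no measure of size, and its call was kept in 5 of 13 alternatives. The Col1a2 region went from 4.82 to 3.58 and from 7.83 to 3.85 CPM in MGE and held 16.8 to 22.6 in the neuron-like sums of the other libraries, and the part of mesenchymal nuclei was not tested. The 4 motifs among those described had differences of 0.0583 for LHX9, 0.0943 for Dlx1, 0.0272 for Dlx3 and 0.349 for NFE2, and their calls were kept in 5 of 12, 4 of 12, 4 of 12 and 7 of 12 alternatives.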

How the results depend on the processing

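The count of genes between MGE members and the mean of LGE and CGE (92) was 633 with DESeq2, 0 with the covered length as an offset, 27 with start-site peaks alone and 57 with a replicate block, and 29 (without MGE 1) to 521 (without MGE 2) when 1 library was left out, with 57 without LGE 1, 31 without CGE 1 and 49 without CGE 2. Against LGE alone (58) these were 458, 1, 21 and 26, and 22 (without LGE 1) to 249 (without MGE 2), with 27 without MGE 1. Against CGE alone (53) they were 461, 0, 20 and 16, and 9 (without CGE 1) to 387 (without MGE 2), with 18 without MGE 1 and 14 without CGE 2, and the lowest 15% of nuclei gave 85. The gene count in the difference of differences (633) was 205 with start-site peaks, 2 with no term for the library, and 228 (without MGE 2) to 935 (without CGE 2), with 404 without MGE 1 and 247 without LGE 1. The region count between members (7004) was 4151 with the offset and 4100 (without MGE 1) to 6914 (without MGE 2), with 4172 without CGE 1 and 4557 without CGE 2. In the difference of differences (6004) it was 3481 after thinning, 1336 with no term for the library, and 1642 (without MGE 2) to 6031 (without CGE 2), with 3515 without MGE 1. Motif calls between members (0) were 6 with DESeq2 and 0 to 1 with 1 library left out, and in the difference of differences (18) they were 60 with DESeq2, 32 with 15% of nuclei, 0 without the 5% of nuclei with the most counts, 0 with no term for the library, and 0 to 19 with 1 library left out, with 0 without MGE 1, LGE 1 or CGE 2. The cause of these shifts was not tested. No filter, and the score from regions with a peak in all 6 libraries, which was chosen after seeing the data, moved no count by over 1.5 times.

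Single genes changed direction in 2 cases, both with start-site peaks alone, where the difference of differences was 0.12 for Col1a2 and -3.04 for Parvg. Of the other gene values in that comparison 367 kept their direction and call and 100 lost the call, and between members 235 kept and 74 lost it. Regions kept theirs in 133 cases and lost the call in 6 between members, and in 121 and 9 in the difference of differences, and motifs kept 74 and lost 142. Nkx2-1, Lhx6 and Lhx8 between members lost the call with the covered-length offset alone, and Meis2 there and with start-site peaks. In the difference of differences Nkx2-1, Lhx6, Lhx8, Gbx1, Meis2 and Zfp503 lost it with no term for the library alone. Plxna2 and Dll3 also lost it without MGE 2 or LGE 1, and Zic1 and Zic4, between members, without CGE 1 among others.

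The labels give the libraries numbers. The correlation over genes of same-numbered deviations from the eminence mean was 0.0332 for MGE with LGE and 0.00301 for MGE with CGE. It was 0.513 for LGE with CGE, so in gene levels only same-numbered LGE and CGE libraries deviated together. Other traits went with the number in MGE too. In MGE, LGE and CGE, number 1 libraries had 760, 703 and 306 nuclei under 5000 counts, and number 2 libraries 151, 153 and 102. Each number 2 library also had more peaks than its number 1 library. Whether the number marks a batch was not tested. With the replicate block the region count was 10096. Values at or near 0 counts, as in the region near Ralgapa2, cannot give a fold.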

Other observations

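The MGE members set against each neighbour alone show which eminence a gene stood apart from, with the same MGE libraries in both values. Nkx2-1 had log2 folds of 3.24 against LGE and 3.06 against CGE, and Lhx6 2.99 and 2.38, all called (adjusted p 0.00709 and 0.00866 for Nkx2-1, 0.00136 and 0.00362 for Lhx6). Meis2 had -1.51 against LGE (adjusted p 0.00873) and -1.14 against CGE (adjusted p 0.0293). Nr2f1 had 0.63 against LGE (adjusted p 0.301) and -1.03 against CGE (adjusted p 0.0957), so its values lay on opposite sides and neither was called. Whether the folds against LGE and CGE differ from each other was not tested.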
